A study of Arabidopsis thaliana with 16 samples.

Results

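The response of *Arabidopsis thaliana* seedlings to nuclear SPEECHLESS (SPCH) beyond the response of wild type was read as a line-by-time interaction, the 12 h change of a line with inducible SPCH minus the 12 h change of wild type. All 16 of 16 libraries entered it, 4 in each of 4 groups, and 20756 of 33602 genes had enough reads to be tested. The inducible line carried ATML1pro:GR-SPCH1-4A-YFP in homozygous form. The other line was wild type. Whole seedlings grown in shaken liquid culture with sucrose were collected 7 days after germination, before treatment (0 h) and 12 h after 100 μM dexamethasone, which both lines received. The ATML1 promoter is active in the epidermis, so that the fusion was made in 1 tissue layer of a whole seedling, and reads of the transgene counted to SPCH. Untreated seedlings at 12 h were not analysed here, and in each line the drug and the elapsed time cannot be told apart. Nor can the interaction tell nuclear SPCH apart from any other difference in how the lines responded to drug and time. Nothing in the labels ties the 4 libraries of a group to separate cultures, so that p-values speak only of the spread among these libraries, which may be technical.

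SPCH is a basic helix-loop-helix (bHLH) transcription factor that starts the stomatal lineage of the leaf epidermis, in which asymmetric divisions give rise to guard cells. It acts with the related factors ICE1 and SCRM2, and secreted EPF peptides, their receptors and a MAP kinase cascade restrain it. Fusion to the glucocorticoid receptor (GR) domain keeps a protein in the cytoplasm until dexamethasone is bound, and the 1-4A form of SPCH has altered phosphorylation sites.

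The libraries held between 16251477 and 22944391 reads. Replicates 1 and 2 of every group shared a sequencing lane, and replicates 3 and 4 shared another. The libraries separated by this split along the first principal component, which held 49.5% of the variance. Lane and any other difference between these replicates cannot be told apart, and a lane term was part of the fit. Around that fit wild-type 0 h replicates 2 and 1 scattered most, with residual SDs of 0.345 and 0.309 on the log2 scale against a lowest value of 0.218. Levels are normalized read counts, given for replicates 1 to 4 in that order, and differences are log2 values from limma with the Benjamini-Hochberg adjustment. A gene is called at an adjusted p under 0.05. In bulk RNA of whole seedlings, fewer cells of a type and less RNA per cell cannot be told apart.

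The interaction called 586 genes, 2.82% of those tested. Of these, 191 (0.920%) were higher and 395 (1.90%) were lower in the inducible line beyond wild type. Called rises were mostly small, with a median of 0.76, and 49 reached a log2 value of 1, while called falls had a median of -1.08 and 220 reached a log2 value of -1. Over all tested genes the median interaction was -0.0025, with 10305 values above and 10451 below 0. The lanes differed in how much they held on their own. Lane 1 alone called 4 genes and lane 2 alone 148, in fits with 2 libraries per group. Leaving out wild-type 0 h replicate 1 raised the count to 1941, while leaving out replicate 2 of that group gave 582, and DESeq2 on the recovered reads called 1224. Leaving out inducible-line 12 h replicate 2 lowered the count to 234, inducible-line 0 h replicate 4 to 264, wild-type 12 h replicate 4 to 283 and replicate 2 to 289, and wild-type 0 h replicate 4 to 338 and replicate 3 to 369. Without the lane term 106 genes were called, all of them among the 586.

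**Figure D1:**
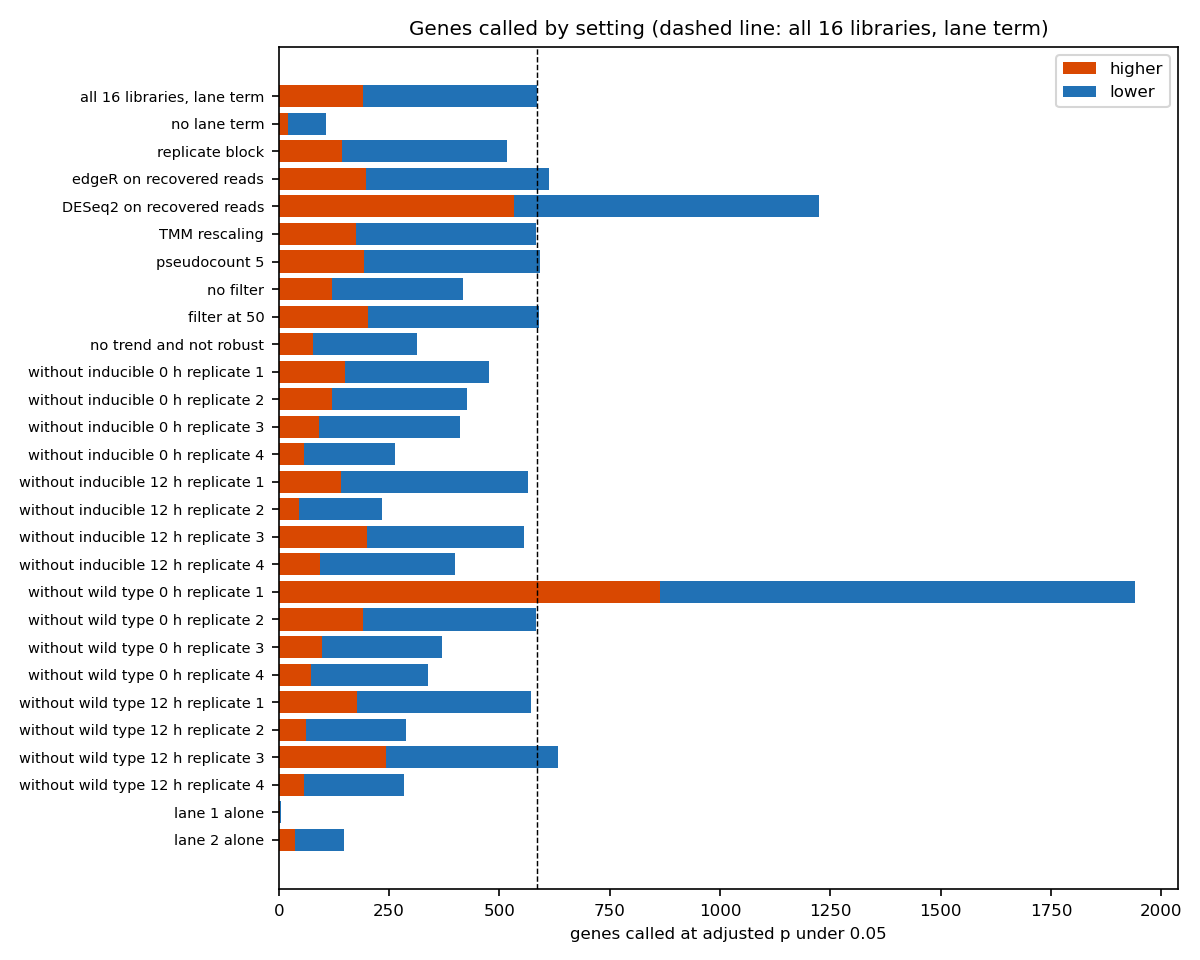
Horizontal bars give the number of genes called in the interaction at an adjusted p under 0.05 for each setting, split into higher (orange) and lower (blue), with a dashed line at the 586 genes of the fit to all 16 libraries with a lane term. The count ran from 4 in lane 1 alone to 1941 without wild-type 0 h replicate 1.

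An interaction can arise in either line, and the called genes drew on both. In the called rises the inducible line rose by a median of 0.29 while wild type fell by 0.48, and the lines had differed by a median of -0.40 at 0 h. In the called falls the inducible line changed by a median of -0.86 and wild type by 0.23, with a line difference of 0.29 at 0 h. Of the 191 rises, 22 went up by at least 1 log2 unit in the inducible line, and 10 went down by at least 1 in wild type. These parts share their libraries with the interaction and are given side by side as its components.

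**Figure D2:**
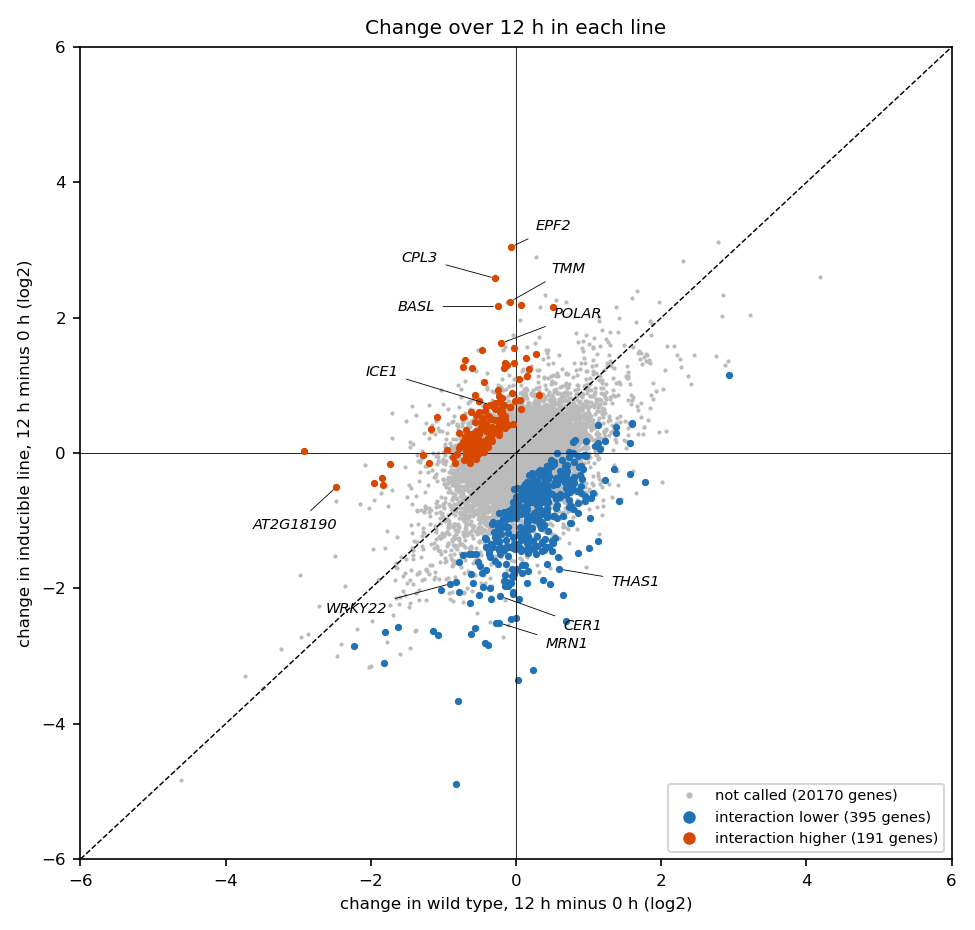
Each point is 1 of the 20756 tested genes, with its log2 change over 12 h in wild type on the x axis and in the inducible line on the y axis. Genes called higher in the interaction (orange, 191) lie above the dashed line of equal change and genes called lower (blue, 395) below it. EPF2, CPL3, TMM and BASL lie far up near a wild-type change of 0, and AT2G18190 lies far to the left, where wild type fell.

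SPCH itself (AT5G53210, chr5:21586219-21589255, minus strand, TAIR10.1) checked the labels. Its normalized counts were 69.7, 56.1, 67.3 and 60.5 in wild type at 0 h, and 59.0, 68.5, 63.3 and 72.0 in wild type at 12 h. They were 116, 144, 154 and 145 in the inducible line at 0 h, and 211, 197, 158 and 233 in the inducible line at 12 h. All 8 inducible-line libraries lay above all wild-type ones at both times, and the 12 h libraries of the inducible line lay above its 0 h libraries. The interaction was 0.46 (SE 0.21, adjusted p = 0.24, limma), and SPCH was not called.

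Within the stomatal lineage, the bHLH partners of SPCH rose together. ICE1 and SCRM2 were called among the 5 stomatal bHLH factors, all of them tested, and MUTE and FAMA, which act later in the lineage, were not. The list median of 0.46 is the value of SPCH itself, whose reads include the transgene.

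ICE1 (AT3G26744), which binds DNA together with SPCH, held 922, 1004, 869.7 and 1040.3 in wild type at 0 h, and 762, 794, 754 and 686 in wild type at 12 h. It held 928, 974, 906 and 833 in the inducible line at 0 h, and 1569, 1554, 1349 and 1499 in the inducible line at 12 h. The 12 h libraries of the inducible line stood above every other library, and those of wild type stood below every other one. The interaction was 1.07 (SE 0.12, adjusted p = 5.8e-05, limma), made of 0.71 in the inducible line next to -0.35 in wild type. SCRM2 (AT1G12860), the paralog of ICE1, held 605, 651, 655 and 593 in wild type at 0 h, and 505, 592, 441 and 494 in wild type at 12 h. It held 614, 671, 599.8 and 559.6 in the inducible line at 0 h, and 917, 1125, 851 and 1137 in the inducible line at 12 h. Again the induced libraries stood above all others, and the interaction was 1.02 (SE 0.15, adjusted p = 0.0013, limma). FAMA stood at 0.19 (adjusted p = 0.61) and MUTE at -0.59 (adjusted p = 0.32), and the counts of MUTE were at most 39.3 in any library.

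Genes that act around SPCH at the cell surface held several of the largest rises, and the 250 bases before the RefSeq start of EPF2, TMM, BASL and POLAR are shown because these genes rose together. Capitals mark CANNTG, the E-box core to which bHLH factors bind, and each sequence runs 5′ to 3′ toward its gene (RefSeq, TAIR10.1: EPF2 chr1:12472618-12472867, plus strand, TMM chr1:30129650-30129899, minus strand, BASL chr5:24489837-24490086, minus strand, POLAR chr4:15385030-15385279, plus strand).
EPF2: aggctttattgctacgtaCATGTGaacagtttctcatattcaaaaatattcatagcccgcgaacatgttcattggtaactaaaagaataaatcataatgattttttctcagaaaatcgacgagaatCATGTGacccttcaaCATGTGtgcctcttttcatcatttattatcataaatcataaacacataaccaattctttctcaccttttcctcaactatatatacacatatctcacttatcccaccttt
TMM: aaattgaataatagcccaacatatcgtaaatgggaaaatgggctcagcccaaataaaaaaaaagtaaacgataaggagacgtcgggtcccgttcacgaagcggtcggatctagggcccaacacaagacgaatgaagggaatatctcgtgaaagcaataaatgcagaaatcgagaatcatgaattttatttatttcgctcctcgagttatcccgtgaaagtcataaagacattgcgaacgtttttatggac
BASL: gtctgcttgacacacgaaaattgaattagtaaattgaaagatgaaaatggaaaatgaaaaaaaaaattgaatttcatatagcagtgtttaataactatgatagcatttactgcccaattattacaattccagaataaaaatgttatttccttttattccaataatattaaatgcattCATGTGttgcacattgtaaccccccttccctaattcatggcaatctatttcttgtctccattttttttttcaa
POLAR: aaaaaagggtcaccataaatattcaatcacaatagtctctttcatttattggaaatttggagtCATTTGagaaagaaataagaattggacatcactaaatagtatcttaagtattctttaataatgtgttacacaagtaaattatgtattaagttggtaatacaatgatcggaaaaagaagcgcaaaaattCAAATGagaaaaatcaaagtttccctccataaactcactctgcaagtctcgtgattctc

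The EPF2 window held 3 CANNTG matches, the POLAR window 2, the BASL window 1 and the TMM window 0, while TMM and POLAR each held 1 match to CTCGTG. Over all genes with a window, CANNTG was present in 56.4% of 20640, in 55.8% of the 190 windows of called rises and in 60.0% of the 395 windows of called falls. Each motif was searched on both strands. For CTCGTG, which is not a form of CANNTG but can overlap one in position, the shares were 4.22%, 7.89% and 6.84%. CACGTG, a form of CANNTG, was present in 7.15%, 8.42% and 9.62%, and CGCGTG in 2.85%, 4.21% and 3.04%. These are matches of letters in a short window and were not tested.

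EPF2 (AT1G34245), the secreted peptide that limits entry into the lineage, held 42.3, 51.1, 93.0 and 78.6 in wild type at 0 h, and 57.8, 58.3, 57.2 and 67.3 in wild type at 12 h. It held 39.8, 43.8, 79.0 and 66.4 in the inducible line at 0 h, and 379, 421, 392 and 723 in the inducible line at 12 h. Every induced library lay at 379 or above and no other library above 93.0, and replicate 4 of the induced group stood apart at 723. The interaction was 3.11 (SE 0.27, adjusted p = 3.5e-06, limma), the largest among all called rises, with a wild-type change of -0.07. Of the other peptides, EPF1 (-0.38), EPFL9 (0.36) and EPFL6 (0.41) were not called, none of them above 38.2 normalized counts in any library, and EPFL4 and EPFL5 were too low to be tested.

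TMM (AT1G80080), the receptor-like protein that works with the ERECTA kinases in perceiving EPF peptides, held 228, 198, 309 and 288 in wild type at 0 h, and 240.4, 239, 248 and 222 in wild type at 12 h. It held 265, 311, 297 and 271 in the inducible line at 0 h, and 1350.0, 1400.0, 1205 and 1449.8 in the inducible line at 12 h. The induced libraries lay far above all 12 others, which overlapped one another. The interaction was 2.32 (SE 0.17, adjusted p = 4.7e-07, limma), the smallest adjusted p of the whole comparison. Of the 7 stomatal receptors TMM and the kinase ERL1 were called, and the list median was 0.07. ERL1 reached 0.77 (SE 0.21, adjusted p = 0.0499, limma), with induced libraries from 217 to 292 and all others from 90.8 to 186. That call was lost in 14 of 16 fits that left out 1 library, kept without wild-type 0 h replicate 1 or 2, and lost with a replicate block (adjusted p = 0.061). ERL2 stood at 0.49 (adjusted p = 0.22), and ER, SERK1, SERK2 and BAK1 stood between -0.05 and 0.07.

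Among 10 genes of division polarity, BASL and POLAR were called and the 8 BRX-family and BSL genes were not, with values from -0.22 to 0.56 and a list median of 0.18. BASL (AT5G60880), which marks one side of the cell before an asymmetric division, held 27.4, 50.2, 57.7 and 61.6 in wild type at 0 h, and 20.4, 56.2, 43.2 and 47.7 in wild type at 12 h. It held 33.5, 39.1, 60.8 and 51.0 in the inducible line at 0 h, and 179, 213, 165 and 281 in the inducible line at 12 h. POLAR (AT4G31805), which shares that polar domain, held 137, 174, 137 and 168 in wild type at 0 h, and 127, 153, 122 and 132 in wild type at 12 h. It held 169, 154, 199 and 146 in the inducible line at 0 h, and 509, 563, 413 and 582 in the inducible line at 12 h. In both genes the induced libraries lay above all others, and in POLAR the nearest other library was 199. The interaction was 2.42 for BASL (SE 0.37, adjusted p = 0.0017, limma) and 1.82 for POLAR (SE 0.20, adjusted p = 4.7e-05, limma).

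CPL3 (AT4G01060, CAPRICE-LIKE MYB3), a single-repeat MYB protein of epidermal patterning, held 59.5, 54.4, 43.8 and 38.2 in wild type at 0 h, and 39.7, 38.9, 45.2 and 34.6 in wild type at 12 h. It held 55.5, 48.6, 59.8 and 59.1 in the inducible line at 0 h, and 356, 325, 279 and 403 in the inducible line at 12 h. Induced libraries stood at 279 or above and the others at 59.8 or below, and the interaction was 2.87 (SE 0.24, adjusted p = 2.6e-06, limma). Of its relatives, CPC (-0.03), TRY (-0.57), ETC1 (-0.99) and ETC2 (0.78) were not called, and the median of the 5 tested members was -0.03. SOL1, a CXC-domain regulator of divisions late in the lineage, was the called member of 7 tested late regulators, at 1.00 (SE 0.20, adjusted p = 0.012, limma). Its induced libraries ran from 436 to 753 and overlapped wild-type 0 h replicate 1 (441), which stood apart from the other wild-type 0 h libraries at 264 to 269. SOL2 stood at 0.48 and FLP at 0.31, with adjusted p-values of 0.16 and 0.35.

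**Figure D3:**
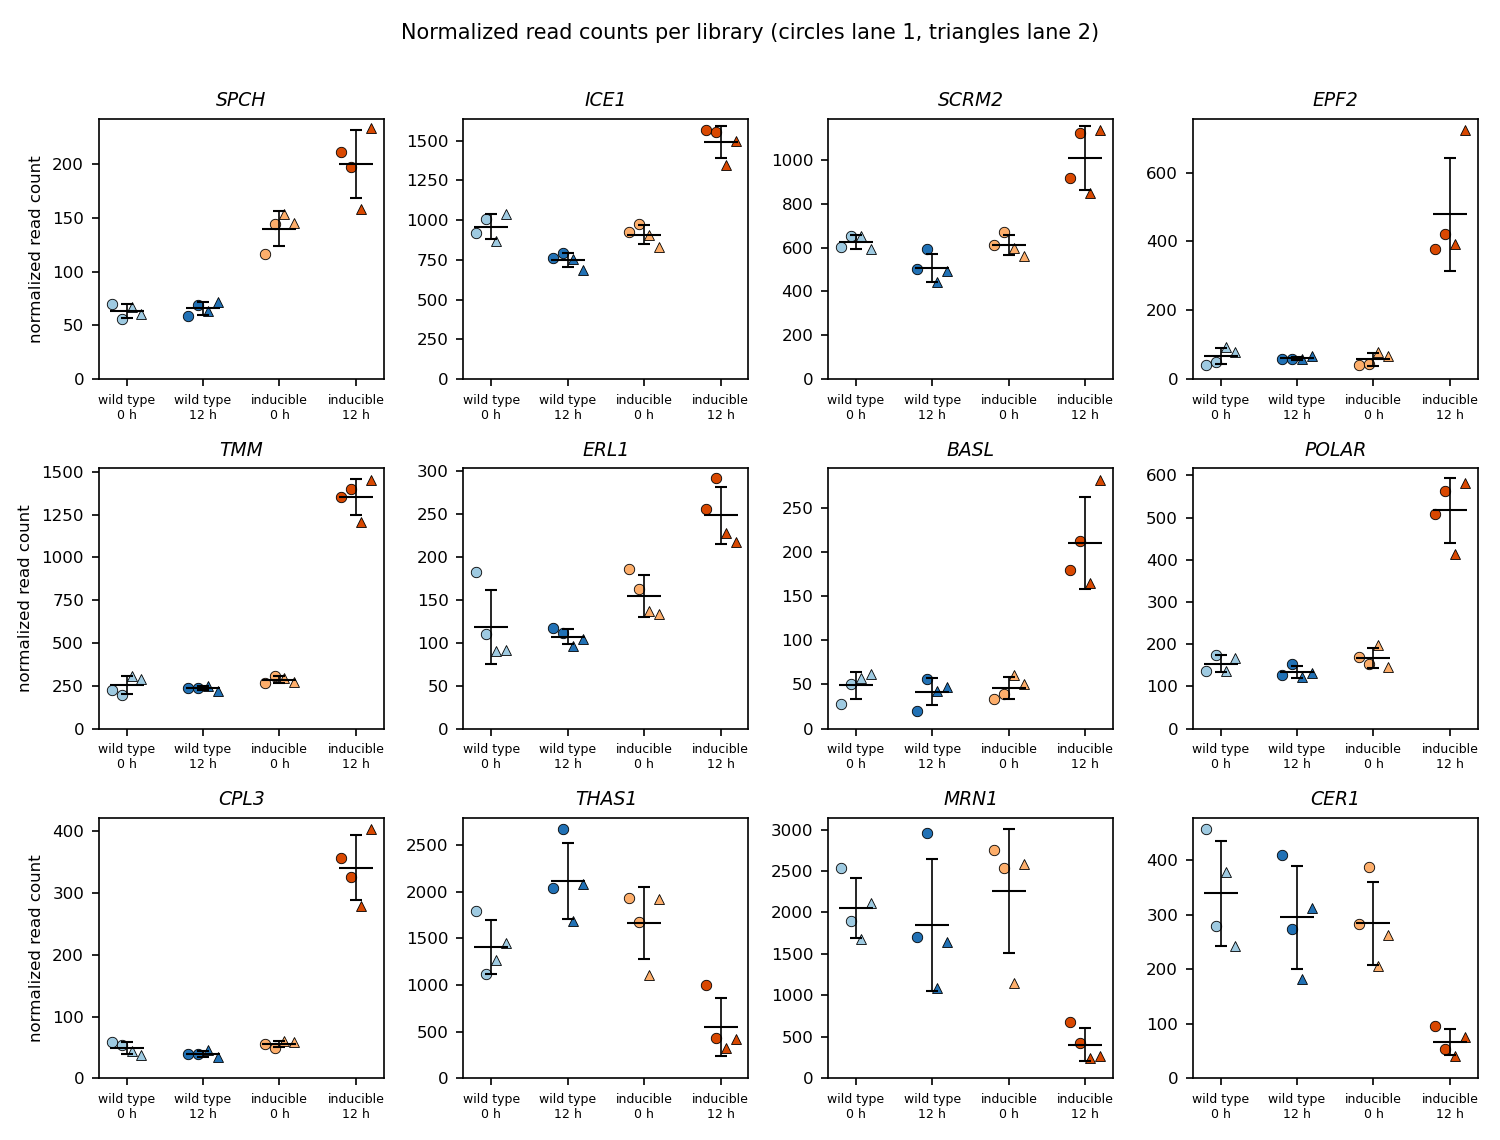
Normalized read counts of 12 genes in each library, with circles for lane 1, triangles for lane 2, and a bar with whiskers for mean and SD of 4 libraries. In EPF2, TMM, BASL, POLAR, CPL3, ICE1, SCRM2 and ERL1 the inducible line at 12 h stands above the other groups, in THAS1, MRN1 and CER1 below them, and SPCH is higher in the inducible line at both times.

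In the lists of bHLH factors, peptides, receptors, polarity genes, late regulators and single-repeat MYB proteins together, 9 of 38 tested members were called higher and 0 lower, where 0.920% and 1.90% of all tested genes were. All lists here were chosen with earlier results of these data known, so that their shares are descriptions with no test. The MAP kinase cascade (7 genes, median -0.05) and 13 genes of mature guard cells (median -0.00) held 0 calls by limma, edgeR and DESeq2, with 1 and 0 genes at an unadjusted p under 0.05. Such counts, here and in the lists below, stand next to 4015 of all 20756 tested genes by limma. The summed level of the guard cell genes ran from 17674 to 25514 in the induced libraries and from 17475 to 23014 in wild type at 12 h.

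The other named rises differed in how the lines contributed. AT5G10890, annotated as a myosin heavy chain-like protein, reached 2.13 (SE 0.35, adjusted p = 0.0027, limma), AT3G14760 1.99 (SE 0.19, adjusted p = 1.5e-05) and AT1G12845 1.58 (SE 0.19, adjusted p = 2.5e-04), the latter pair being uncharacterized proteins. Each rose by at least 1.53 in the inducible line, and AT3G14760 also fell in wild type, by 0.46 on the log2 scale. AT2G18190, annotated as a P-loop nucleoside triphosphate hydrolase, held 397, 759, 639 and 781 in wild type at 0 h, and 63.5, 105, 203 and 112 in wild type at 12 h. It held 389.9, 240.1, 227 and 539.6 in the inducible line at 0 h, and 207, 244, 234 and 240.3 in the inducible line at 12 h. Here the wild-type 12 h libraries were the lowest, and the inducible line overlapped itself over time.

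The interaction of AT2G18190 was 1.97 (SE 0.42, adjusted p = 0.023, limma), made of -0.50 in the inducible line next to -2.48 in wild type. Its adjusted p rose to 0.063 without replicate 2 of the induced libraries, to 0.054 without wild-type 0 h replicate 4 and to 0.056 without wild-type 12 h replicate 4. AT5G13210 took the same course, at 1.57 from -0.17 and -1.74, and its call was lost in 10 of 16 fits without 1 library and kept without inducible-line 0 h replicate 1, inducible-line 12 h replicate 3 or 4, wild-type 0 h replicate 1 or wild-type 12 h replicate 1 or 3. AT4G29020, a glycine-rich protein (2.00, SE 0.29, adjusted p = 0.0017), and AT5G11550, an ARM repeat protein (1.85, SE 0.26, adjusted p = 8.9e-04), combined a rise in the inducible line with a fall in wild type, and had stood lower in the inducible line at 0 h with log2 differences of -1.06 and -0.94.

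Triterpene genes were among the falls. Of 13 tested members of that list 7 were called lower, where 1.90% of all tested genes were, and 0 higher, with a median of -1.78. They were the thalianol genes THAS1, CYP708A2 and CYP705A5, the marneral genes MRN1, CYP705A12 and CYP71A16, and SQP2, a squalene monooxygenase. The list symbols THAA1 and THAA2 matched no gene by name and are not among the 13. The triterpene list too was chosen with earlier results of these data known, and its share was not tested. Thalianol and marneral are triterpenes of the root, and the genes just named for each lie side by side on chromosome 5.

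THAS1 (AT5G48010), which makes thalianol, held 1796, 1119, 1268 and 1455 in wild type at 0 h, and 2037, 2671, 1688 and 2084 in wild type at 12 h. It held 1937, 1680.4, 1112 and 1922 in the inducible line at 0 h, and 1006, 436, 322 and 422 in the inducible line at 12 h. The induced libraries lay below all others, with replicate 1 highest among them. The interaction was -2.31 (SE 0.36, adjusted p = 0.0040, limma), from -1.71 in the inducible line against 0.59 in wild type. MRN1 (AT5G42600), which makes marneral, held 2534, 1892, 1683 and 2118 in wild type at 0 h, and 1707, 2963, 1086 and 1639.7 in wild type at 12 h. It held 2755, 2532, 1144 and 2587 in the inducible line at 0 h, and 678, 429, 242 and 275 in the inducible line at 12 h. Its induced libraries also lay below all others, and the interaction was -2.28 (SE 0.37, adjusted p = 0.0053, limma), from -2.51 and -0.23. CYP708A2, which oxidises thalianol, reached -2.12 (SE 0.35, adjusted p = 0.0054).

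The windows before THAS1 and CYP708A2 are shown because these neighbours fell together, with capitals for CANNTG as above (RefSeq, TAIR10.1: THAS1 chr5:19456587-19456836, plus strand, CYP708A2 chr5:19447867-19448116, minus strand). Each held 1 match.
THAS1: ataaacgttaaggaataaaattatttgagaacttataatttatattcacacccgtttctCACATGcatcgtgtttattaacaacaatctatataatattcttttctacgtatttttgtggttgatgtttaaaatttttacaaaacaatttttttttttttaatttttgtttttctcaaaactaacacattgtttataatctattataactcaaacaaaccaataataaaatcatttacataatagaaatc
CYP708A2: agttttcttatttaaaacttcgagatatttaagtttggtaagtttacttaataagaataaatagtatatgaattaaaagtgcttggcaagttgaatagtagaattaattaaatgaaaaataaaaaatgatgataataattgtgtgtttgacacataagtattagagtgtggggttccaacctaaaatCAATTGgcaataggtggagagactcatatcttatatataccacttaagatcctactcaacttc

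In chromosome order the thalianol run was AT5G47980, an acyltransferase of the HXXXD type (-2.26), then CYP705A5 (-1.81), CYP708A2 (-2.12) and THAS1 (-2.31), spanning chr5:19428888-19461706 (TAIR10.1). AT5G48020 and GFA2 on the far side of THAS1 stood at 0.03 and 0.02. On the near side AT5G47970 and RABA4C stood at -0.17 and -0.14, and beyond them AT5G47950, another HXXXD-type acyltransferase, was called at -1.75 (SE 0.25, adjusted p = 8.9e-04, limma). The marneral run of CYP705A12 (-1.78), CYP71A16 (-1.81) and MRN1 (-2.28) was flanked by AT5G42570 at 0.28 and AT5G42620 at -0.04. On chromosome 3, NSP1 (-1.04) and NSP4 (-0.90), nitrile specifier proteins that steer glucosinolate breakdown, were called beside the lectin genes PBP1 (AT3G16420, -0.88), JAL31 (-1.33), JAL33 (-0.88) and JAL34 (-1.10), while MLP-300B between them stood at -0.42.

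**Figure D4:**
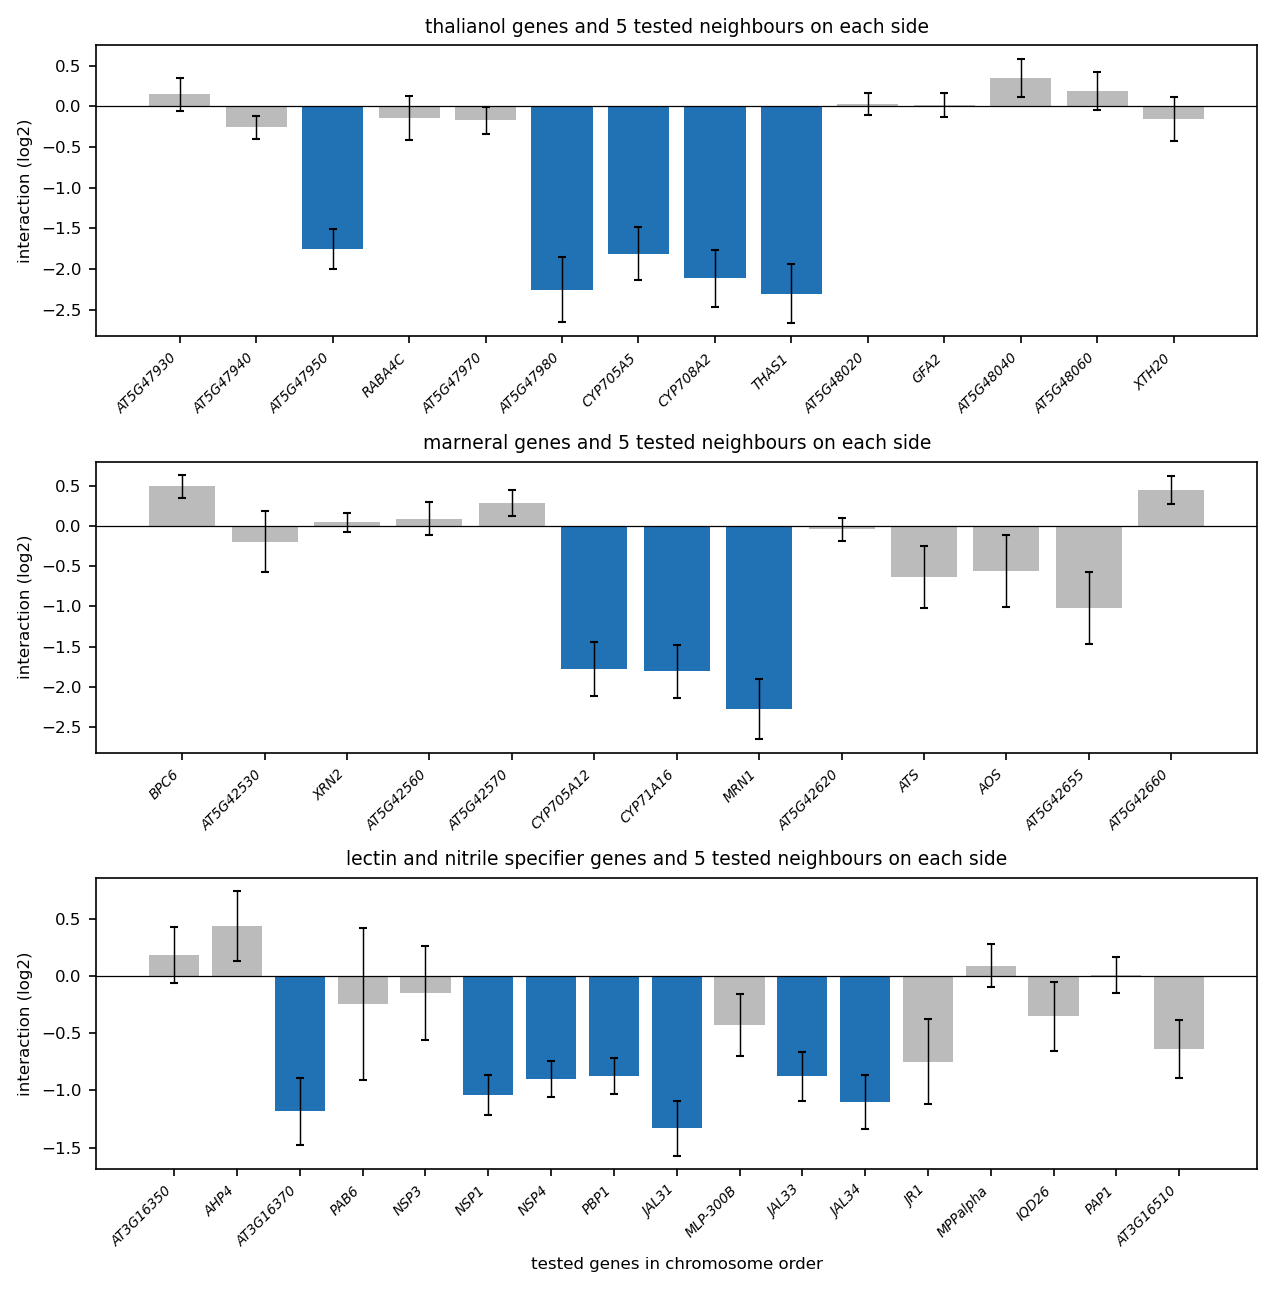
Bars give the log2 interaction of consecutive tested genes in chromosome order, with SE as whiskers, for the thalianol, marneral and lectin with nitrile specifier genes and 5 tested neighbours on each side. Called genes are blue and others grey. The thalianol run from AT5G47980 to THAS1 and the marneral run from CYP705A12 to MRN1 end at neighbours near 0 on the right of THAS1 and of MRN1.

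Counted over the genome, 64 of the 395 called falls (16.2%) were consecutive tested genes with the same call, in 28 runs of up to 4 genes. Of 190 called rises with a nuclear position, 6 (3.16%) were, in 3 runs. Falls were the more numerous calls, which by itself gives more neighbours, and the shares were not tested. Other such runs held 3 genes of the berberine bridge family, AT1G30700 (-1.30), AT1G30720 (-1.24) and AT1G30730 (-1.66). A run of serine carboxypeptidase-like genes held scpl5 (-1.95), scpl2 (-1.65) and scpl4 (-1.06), and a run of MD-2-related lipid recognition proteins held AT5G23820 (-1.26), AT5G23830 (-1.38) and AT5G23840 (-1.63). Members of such families are alike in sequence, and how reads that fit several copies were assigned is not given in the sources, so that values of close copies are uncertain. The annotated ends of scpl2 and scpl4 overlap on the same strand, and their reads may be split between them.

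Markers of root cell types also had mostly negative interactions. All 12 tested root hair genes had a negative interaction, with a median of -0.74, and 0 were called by limma or edgeR and 1 by DESeq2, with 5 at an unadjusted p under 0.05. Their summed level ran from 938 to 1683 in the induced libraries and from 1534 to 2096 in that line at 0 h. Wild type spanned 1219 to 2706 at 0 h and 1535 to 2487 at 12 h, so that all 4 groups overlapped. Of 12 endodermis genes 9 were negative, with a median of -0.39. The summed endodermis level ran from 1971 to 3512 in the induced libraries, against 2134 to 3525 at 0 h in that line, 2436 to 3349 in wild type at 0 h and 2770.0 to 3861 at 12 h. No member of either list was at 0 in all libraries, and the part of root tissue in the fall of the triterpene genes was not tested.

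The other named falls were AT5G04120, of the phosphoglycerate mutase family (-2.74, SE 0.44, adjusted p = 0.0029, limma), the calcium-dependent kinase CPK22 (-2.45, SE 0.52, adjusted p = 0.018), AT3G29252 (-2.38, SE 0.46), the small cysteine-rich protein LCR85 (-2.37, SE 0.48), the sterol-pathway cytochrome CYP710A4 (-2.24, SE 0.38), AT5G46900 of the lipid-transfer superfamily (-2.19, SE 0.34) and AT1G66800, a Rossmann-fold protein (-2.07, SE 0.29). Their wild-type changes ran from -0.43 to 0.64, and each fell by at least 1.92 in the inducible line. Called falls reached down to -4.07 over all genes, in genes below the mean level that the naming rule asks for. AT5G04120, CPK22, AT3G29252, LCR85 and AT5G46900 were low, with induced libraries at 31.35, 22.3, 12.6, 62.0 and 39.7 normalized counts or less.

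A pair of wax genes of the epidermis fell as well. Of 17 tested cuticle and wax genes 2 were called lower, where 1.90% of all tested genes were, and 0 higher. In that list 15 had a negative value, and the median was -0.38. CER1, needed for the alkanes of the wax layer, held 456, 279.6, 377 and 242 in wild type at 0 h, and 409, 274, 183 and 312 in wild type at 12 h. It held 282, 388, 206 and 262 in the inducible line at 0 h, and 95.9, 53.9, 40.2 and 75.9 in the inducible line at 12 h. Its induced libraries stood below all others, and the interaction was -1.90 (SE 0.35, adjusted p = 0.0076, limma). CER4, which makes primary alcohols of the wax, reached -1.35 (SE 0.26, adjusted p = 0.0084). Of 8 HD-ZIP IV genes 4 had a positive and 4 a negative value, with a median of -0.17, and 1 was called lower. This was HDG11, a homeodomain factor of the epidermis, at -0.89 (SE 0.22, adjusted p = 0.035, limma), with induced libraries from 66.6 to 90.2 and all others at 122 or above. That call was lost in 10 of 16 fits without 1 library and kept without inducible-line 0 h replicate 1, inducible-line 12 h replicate 1 or 4, wild-type 0 h replicate 1 or 2 or wild-type 12 h replicate 3. The summed level of the cuticle and wax genes ran from 23782 to 30912 in the induced libraries and from 30005 to 41722 in the other groups, and its part in these values was not tested. The trichome MYB-bHLH-WD40 genes had 7 of 8 negative values and a median of -0.68, with 0 calls by limma or edgeR, 1 by DESeq2 and 3 at an unadjusted p under 0.05, and their summed level was 1023 to 1077 in the induced libraries and 1170 to 1328 in wild type at 12 h.

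Genes of cell division mostly had positive interactions. Of 26 mitotic genes 23 had a positive interaction, with a median of 0.41, and 1 was called higher, where 0.920% of all tested genes were. That was CYCB1;1, the cyclin of entry into mitosis, at 1.05 (SE 0.21, adjusted p = 0.012, limma), from 0.62 in the inducible line next to -0.43 in wild type. Its induced libraries ran from 179 to 232 and its wild-type 12 h libraries from 111 to 143. Wild-type 0 h replicate 4, at 225, overlapped the induced ones. Of 8 D-type cyclins 5 had a positive and 3 a negative value, with a median of 0.07. CYCD3;2, a D-type cyclin of proliferating cells, was the called member at 0.58 (SE 0.14, adjusted p = 0.032, limma). That call was lost without inducible-line 0 h replicate 2 or 3, inducible-line 12 h replicate 2 or 4, wild-type 0 h replicate 4 or wild-type 12 h replicate 1, 2 or 4. DNA replication genes (18, median 0.12) held 0 calls by limma or edgeR and 2 by DESeq2, with 3 at an unadjusted p under 0.05. CDK inhibitors (10, median 0.28) held 0 calls by limma or edgeR and 1 by DESeq2, with 2 at an unadjusted p under 0.05. Of all 20756 tested genes, 4015 reached that unadjusted p.

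Jasmonate, defence and starvation genes mostly had negative interactions and a higher level in the inducible line at 0 h. All 21 jasmonate genes had a negative interaction, with a median of -0.63. JAZ2 and JAZ3, repressors of jasmonate signalling, were called lower, where 1.90% of all tested genes were. At 0 h the same list had stood higher in the inducible line by a median of 0.89. JAZ3 held 418, 392, 259.6 and 262 in wild type at 0 h, and 407, 383, 257 and 374 in wild type at 12 h. It held 608, 656, 700.1 and 609 in the inducible line at 0 h, and 408, 317, 354 and 322 in the inducible line at 12 h. The inducible line at 0 h lay above all other libraries, and the lines overlapped at 12 h. Its interaction was -0.99 (SE 0.20, adjusted p = 0.011, limma), the line difference 0.98 at 0 h and -0.01 at 12 h. JAZ2 reached -0.63 (SE 0.16, adjusted p = 0.041), a call lost in 12 of 16 fits without 1 library and kept without inducible-line 12 h replicate 1, wild-type 0 h replicate 1 or wild-type 12 h replicate 2 or 3, and lost with a replicate block (adjusted p = 0.058).

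The defence list had 4 of 20 genes called lower, where 1.90% of all tested genes were, and a median of -0.53, with a line difference of 0.72 at 0 h. WRKY22, a transcription factor of the immune response, held 352, 218, 233 and 298 in wild type at 0 h, and 159, 98.2, 164 and 168 in wild type at 12 h. It held 537, 645, 815 and 572 in the inducible line at 0 h, and 172, 157, 196 and 142 in the inducible line at 12 h. Both lines fell, by 1.93 and 0.90 on the log2 scale, and overlapped at 12 h, while the inducible line at 0 h stood above all others. The interactions were -1.03 for WRKY22 (SE 0.26, adjusted p = 0.036), -0.97 for WRKY70 (SE 0.24, adjusted p = 0.037), -0.93 for WRKY53 (SE 0.25, adjusted p = 0.045) and -0.82 for EDS5, the salicylate pathway transporter (SE 0.21, adjusted p = 0.041, limma). None of these calls was stable to leaving out 1 library. That of WRKY22 was lost in 10 of 16 fits without 1 library and kept without inducible-line 0 h replicate 1 or 4, inducible-line 12 h replicate 1 or 3, wild-type 0 h replicate 1 or wild-type 12 h replicate 2. The call of WRKY70 was lost in 11 of 16 fits without 1 library and kept without inducible-line 0 h replicate 2, inducible-line 12 h replicate 1 or 3, wild-type 0 h replicate 1 or wild-type 12 h replicate 4. For WRKY53 it was lost in 11 of 16 fits without 1 library and kept without inducible-line 0 h replicate 1, inducible-line 12 h replicate 3, wild-type 0 h replicate 1 or 2 or wild-type 12 h replicate 3, and lost with a replicate block (adjusted p = 0.068). The call of EDS5 was lost in 12 of 16 fits without 1 library and kept without inducible-line 0 h replicate 2, inducible-line 12 h replicate 1, wild-type 0 h replicate 1 or wild-type 12 h replicate 3.

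Among 19 darkness and starvation genes TPS11 and TPS8, class II trehalose-phosphate synthases, were called at -0.97 (SE 0.20, adjusted p = 0.012) and -0.79 (SE 0.20, adjusted p = 0.038, limma). Of all tested genes 1.90% were called lower, and the list median was -0.60. TPS11 held 1021, 919.9, 561 and 706 in wild type at 0 h, and 595, 725, 646 and 430.0 in wild type at 12 h. It held 1541, 1874, 1079 and 1069 in the inducible line at 0 h, and 571, 520.2, 549.8 and 440.4 in the inducible line at 12 h. At 0 h the inducible line lay above wild type by 0.79, and at 12 h the lines overlapped. The call of TPS8 was lost in 9 of 16 fits without 1 library and kept without inducible-line 0 h replicate 1, inducible-line 12 h replicate 3, wild-type 0 h replicate 1, 2 or 4 or wild-type 12 h replicate 1 or 4. The 14 low-oxygen genes had a median of 0.29, with 0 calls by limma or edgeR, 2 by DESeq2 and 4 at an unadjusted p under 0.05, and a median line difference of 1.04 at 0 h.

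PIF4, the bHLH factor of warm-temperature growth named with SPCH in the series title, held 284, 210.1, 311 and 296 in wild type at 0 h, and 297, 510.3, 385 and 252 in wild type at 12 h. It held 327, 332, 319 and 287 in the inducible line at 0 h, and 218, 252, 186 and 199 in the inducible line at 12 h. At 12 h the lines did not overlap, but inducible-line replicate 2 and wild-type replicate 4 both stood at 252. The interaction was -0.93 (SE 0.25, adjusted p = 0.048, limma), from -0.57 in the inducible line against 0.35 in wild type. The call held without wild-type 0 h replicate 1 or 3 or wild-type 12 h replicate 1 or 4, was lost without any 1 of the other 12 libraries (adjusted p from 0.059 to 0.102), and was lost with a replicate block (adjusted p = 0.059). PIF4 was the called member of 19 PIF and warm-temperature genes, whose median was -0.05. Of all tested genes 1.90% were called lower, and of 15 auxin genes (median -0.41) 1 was. This was IAA3, an auxin response repressor, at -0.96 (SE 0.24, adjusted p = 0.036, limma). That call was lost in 11 of 16 fits without 1 library and kept without inducible-line 0 h replicate 2 or 3, wild-type 0 h replicate 1 or wild-type 12 h replicate 1 or 4, and lost with a replicate block (adjusted p = 0.056). The 18 brassinosteroid genes held 0 calls by limma, 1 by edgeR and 2 by DESeq2, with 4 at an unadjusted p under 0.05 and a median of -0.18.

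In the other lists few genes passed the test. LHCB3, a light-harvesting protein (-0.82, SE 0.19, adjusted p = 0.024), and PSAH2, a photosystem I subunit (-0.64, SE 0.15, adjusted p = 0.028, limma), were called among 25 photosystem genes. That list had a median of -0.09, with 10 positive and 15 negative values. Of all tested genes 1.90% were called lower. Leaving out replicate 2 of the inducible line at 0 h ended the call of LHCB3 (adjusted p = 0.0502), as did leaving out replicate 2 of wild type at 12 h (0.062). That of PSAH2 was lost without inducible-line 0 h replicate 2 or 3, inducible-line 12 h replicate 1 or 3, wild-type 0 h replicate 4 or wild-type 12 h replicate 2 or 4. Vascular (14) and shoot meristem (8) genes held 0 calls by limma, edgeR and DESeq2 and 0 at an unadjusted p under 0.05, with medians of 0.12 and -0.08. The 19 clock genes held 0 calls by limma or edgeR and 1 by DESeq2, with 8 at an unadjusted p under 0.05 and a median of -0.15. WUS, the meristem organiser, was at 0 in all libraries. Over all 20756 tested genes, 4015 had an unadjusted p under 0.05.

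**Figure D5:**
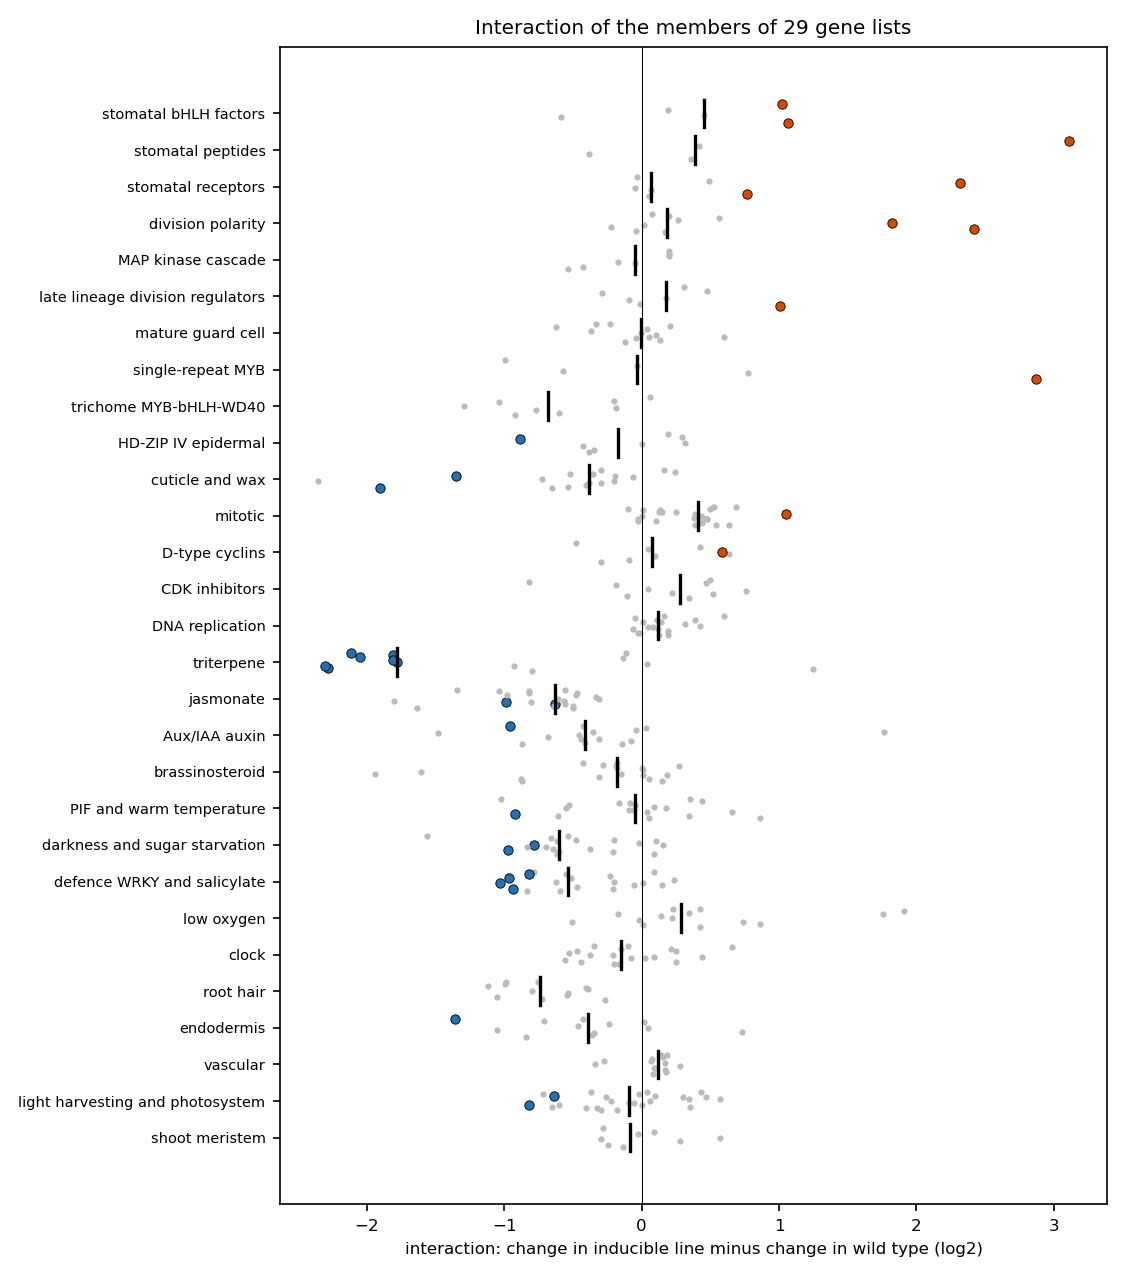
Points give the log2 interaction of each tested member of 29 gene lists, coloured and outlined where called (orange higher, blue lower) and grey otherwise, with a black bar at the list median. The stomatal lists hold the largest rises, up to 3.11, and the triterpene list the lowest median, at -1.78.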

How the data were processed

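Polyadenylated RNA was sequenced, and per the submitters' processing notes TopHat, SAMtools, HTSeq and DESeq2 were used with the TAIR10 build. The deposited table gave a signal per gene, in which the authors scaled each library's reads by a size factor, for 33602 genes in 16 columns matched by name. Read from the values, 100% came out as whole reads (tolerance 0.001), and these recovered reads were used for edgeR and DESeq2. The sources do not give a strand setting.

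Genes reaching 10 normalized counts in 4 or more libraries entered limma 3.58.1 in R 4.3.3 (trend, robust) on log2(normalized count + 1), a scale that understates changes of low genes. The design was the 4 group means and lane, two-sided, Benjamini-Hochberg threshold 0.05. The fit was also run on simulated counts with differences planted in 200 genes, and no result here rests on that run. Alternatives were no lane term, replicate block, edgeR 4.0.16, DESeq2 1.42.0, TMM rescaling, pseudocount 5, no filter, a filter at 50, no trend, each library left out and each lane alone.

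RefSeq TAIR10.1 gave names and positions for 32835 genes and the windows of 250 bases before each gene start. Of 404 list symbols in 29 lists, 399 matched. Named are SPCH, PIF4, the 12 largest called rises and falls with a mean log2 of at least 5 and no overlap between the lines at 12 h, the stomatal lists, up to 4 called members per other list by adjusted p, and called neighbours. Flanking genes and other list members are given for comparison. The result of 1 gene that this rule names is not reported here. Members and lists were chosen with earlier results of these data known.

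Libraries with the same replicate number shared a lane, per the labels' protocols. With lane not removed, same-numbered libraries deviated from their group means together, with correlations of 0.521 to 0.718 (median 0.637) in 24 pairs. Libraries of the same lane with other numbers did so too (0.533 to 0.765, median 0.650). Of 16 libraries, 2 correlated best with their own number, so that no pairing by number beyond the lane was seen.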

Additional observations from a re-analysis of the deposited data

Results flagged for a closer look

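Of 300 groups of 4 libraries, 4 for each of 75 named genes, 15 held a library far from the other 3, and chance flags about 1 in 20 groups. EPF2 stood at 723 in inducible-line 12 h replicate 4, against 379 to 421 in the others, and at 67.3 in wild-type 12 h replicate 4, against 57.2 to 58.3. Inducible-line 0 h replicate 3 was low for MRN1 (1144), BAK1 (1296), FLP (217) and CER4 (164) and high for JAZ2 (878). Wild-type 0 h replicate 1 was low for AT5G11550 (88.0) and high for SOL1 (441) and CER4 (369). SOL2 was low in wild-type 0 h replicate 3 (379) and in wild-type 12 h replicate 3 (277), and EDS5 was low in the latter library as well (276). CYP708A2 was high in inducible-line 12 h replicate 1 (981), and WRKY22 was low in wild-type 12 h replicate 2 (98.2).

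The 12 h change differed between the lines in 586 genes by limma's test of the interaction itself, which is the comparison described above.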

How the results depend on the processing

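Against 586 called genes, 191 higher and 395 lower, the count was 106 without the lane term, 1224 with DESeq2, 313 with no trend and no robust moderation, 4 in lane 1 alone and 148 in lane 2 alone, and it ran from 234 to 1941 when each library was left out. Fewer libraries enter the lane fits. The cause of the other shifts was not tested. The rises were 32.6% of calls, 43.5% with DESeq2 (533 of 1224) and 44.5% without wild-type 0 h replicate 1. With the replicate block, which fits a term for the replicate numbers in place of lane, 518 genes were called, 485 of them among the 586. Of the named calls those of PIF4, ERL1, JAZ2, IAA3 and WRKY53 were lost. edgeR called 613, TMM rescaling 583 and a pseudocount of 5 592, a filter at 50 counts 590 and no filter 417. Of 46 named calls, 30 held in all 16 fits without 1 library, 46 in edgeR and in DESeq2, 45 with TMM rescaling, 22 without the lane term, 4 in lane 1 alone and 18 in lane 2 alone. Of the same 46, 15 were lost with no trend and no robust moderation, and 11 with no filter. No called named gene changed sign under any alternative run. Low genes limit the precision: EPF1, EPFL6 and TRY stayed under 25 normalized counts in each library, with SEs of 0.56 to 0.60.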

Other observations

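Families that the lists did not hold were counted by their annotated product after the values had been seen, so that their counts are descriptions with no test. Of 260 genes annotated as ribosomal proteins, 11 were called higher (4.23%, where 0.920% of all tested genes were) and 0 lower, and 224 had a positive interaction, with a median of 0.27. The inducible line changed by a median of -0.08 and wild type by -0.36. The called members included RPS6 (AT4G31700), a protein of the small ribosomal subunit, at 0.61 (SE 0.14, adjusted p = 0.028, limma), from 0.05 in the inducible line next to -0.56 in wild type. Of 47 histone genes 6 were called higher (12.8%) and 0 lower, among them the H2B gene HTB2 at 0.99 (SE 0.20, adjusted p = 0.013), and the median was 0.25. Of 215 pentatricopeptide repeat genes, mostly factors of organelle RNA processing, 199 had a positive value and 2 were called higher (0.930%, near the 0.920% of all tested genes), with a median of 0.29.

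Among the falls, 5 of 8 genes of the MD-2-related lipid recognition family were called lower (62.5%), and all 8 had a negative value, with a median of -1.32. The lipid-transfer superfamily had 8 of 54 called lower (14.8%), the lectins and jacalins 6 of 30, the berberine bridge family 4 of 19 (21.1%), the serine carboxypeptidase-like genes 4 of 33 (12.1%) and the MATE efflux transporters 8 of 40, against 1.90% of all genes. The MATE family also held AT2G04050, called higher at 1.36 (SE 0.32, adjusted p = 0.037), where wild type changed by -1.84 and the inducible line by -0.48. Members of these families can share reads.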
